A study of Mus musculus with 6 samples.

Results

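The 39 Hox genes of the mouse were picked out of 23420 gene symbols by name alone, as symbols made of Hox, a cluster letter from a to d and a paralog number, and 38 of them are described here. They were grouped by cluster into HoxA (10 of its 11 members), HoxB (10), HoxC (9) and HoxD (9). By paralog number they fell into an anterior class of paralogs 1 to 4 (11 genes), a middle class of paralogs 5 to 9 (15 genes) and a posterior class of paralogs 10 to 13 (12 genes). RNA-seq of ribosome-depleted total RNA covered E14 mouse embryonic stem cells (ESCs, line ES-E14TG2a) in 2 groups of 3 libraries, wild type (WT) and Patz1 -/- knock-out (KO). No other engineered allele is named for either genotype, and both were grown undifferentiated, with LIF and the pair of inhibitors PD0325901 (against MEK) and CHIR99021 (against GSK3). KO lines were grown from single CRISPR-edited clones, the series names 1 WT and 1 KO line, and which clone or clones gave the libraries is not stated. The p-values below measure the spread between libraries, and the deletion cannot be told apart from other differences between the lines. The comparison asks whether loss of the zinc finger protein PATZ1, studied here as a factor at chromatin boundaries within the Hox clusters, was accompanied by different Hox transcript levels in ESCs.

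Hox genes encode homeodomain transcription factors that give cells along the body axis their positional identity. In each cluster the genes lie in the order in which they are used, with low paralog numbers switched on first and towards the head, and high numbers later and towards the tail. In undifferentiated ESCs the clusters are known to be covered by Polycomb repression, and retinoic acid, WNT and the CDX factors open them step by step when the cells differentiate, with TALE homeodomain proteins such as MEIS1 serving as DNA-binding partners of the HOX proteins.

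The libraries held 46301472, 37573923 and 11040756 counts (WT replicates 1 to 3) and 47721070, 46724594 and 11420268 counts (KO replicates 1 to 3). Normalized counts below are counts divided by the size factor of the library, and 3 counts, taken as the limit of detection, equal 1.69 to 2.12 normalized counts in the deep libraries and 7.93 to 8.21 in both libraries numbered 3. These 2 shallow libraries also stood apart in ribosomal carry-over, with 12.5% to 14.4% of their counts on Rn45s against 1.79% to 3.03% in the others. Patz1 itself counted 1838, 1983 and 1843 normalized counts in WT and 853, 862 and 862 in KO (log2 fold change −1.14 ± 0.10, SE), so its transcript was lower but not absent in KO. By western blot the study reports loss of the PATZ1 protein signal in its KO lines. The guide used for the deletion matches exon 1 of Patz1 over its start codon, shown in capitals, on the plus strand of chr11:3290600-3290619 (GRCm38).
Patz1 guide: aaggggcagcgaccATGgag

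Of all genes with an adjusted p in DESeq2, 7.49% passed at 0.05, and 14.6% did with the replicate number as a block. An unadjusted p under 0.05 was found for 13.9% of all genes with a p. Of the pluripotency markers, 8 of 8 were detected and their summed level ran from 133453 to 142890 normalized counts in WT and from 154400 to 159154 in KO, with 1 of them, Dppa5a, risen (log2 fold change 0.38). With the replicate block Pou5f1 (0.14) and Zfp42 (0.15) passed as well. Among 14 fibroblast markers, 3 (Col3a1, Dcn and Postn) had at most 3 counts in every library, the sum ran from 491 to 548 in WT and 527 to 634 in KO, and the 8 with an adjusted p had a median log2 fold change of −0.20. Of the 14, 3 had an unadjusted p under 0.05, of which Thy1 passed and rose (0.83), Fbn1 stood at 197 ± 32.1 in WT and 258 ± 38.7 in KO (0.40, adjusted p 0.244 by DESeq2), and Col5a2 stood at 40.3 ± 10.7 in WT and 20.9 ± 7.43 in KO without overlap (−0.97, adjusted p 0.186 by DESeq2). The 11 caudal epiblast and mesoderm markers summed to 1022 to 1341 in WT and 743 to 1093 in KO, and of the 7 with an adjusted p Wnt3a fell (−1.23). The 12 neural progenitor and motor neuron markers summed to 156 to 170 in WT and 137 to 185 in KO, and 0 of them passed the test in DESeq2 (6 had an adjusted p), edgeR or limma-voom, with 0 at an unadjusted p under 0.05. The part of cells of these other types in the Hox values was not tested, and in bulk RNA fewer cells that use a gene cannot be told apart from less RNA per cell.

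Hox transcripts were scarce in every library. The 38 genes together took 19.2, 22.7 and 20.5 CPM (counts scaled to a fixed library total) in WT and 15.6, 18 and 16.2 CPM in KO. Of the 38, 9 had at most 3 counts in each of the 6 libraries (Hoxa6, Hoxb1, Hoxb2, Hoxb3, Hoxb5, Hoxb6, Hoxb8, Hoxd3 and Hoxd12), and for these no fold change is given. Hoxa6, Hoxb2, Hoxb5 and Hoxd12 had 0 counts in all KO libraries, which allows up to 3 counts in each. The HoxB genes from Hoxb1 to Hoxb8 held 6 of these 9 members, while every HoxC gene exceeded 3 counts in at least 1 library. In at least 2 of 3 libraries, 24 of the 38 genes were over 3 counts in WT and 21 in KO, and only 6 were over 3 counts in all 6 libraries.

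**Figure D1:**
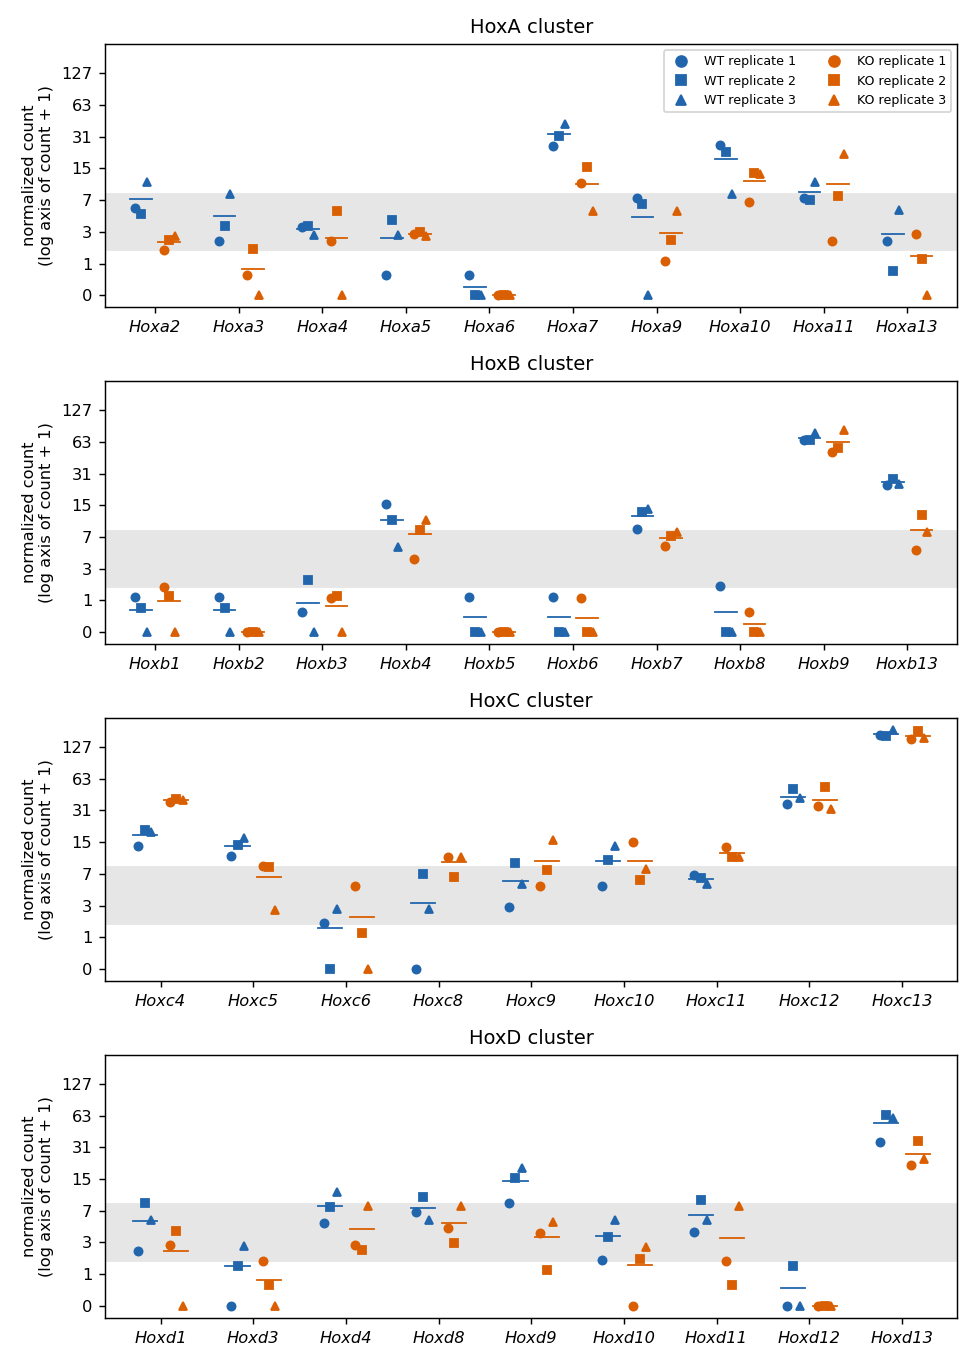
Normalized counts of each Hox gene by library, on a log axis of the count plus 1 labelled with the count itself, with 1 panel per cluster, blue points for WT, orange points for KO, a symbol per replicate number and a short line at each mean. The grey band spans the 3-count limit of the 6 libraries, 1.69 to 8.21 normalized counts. Hoxc13, Hoxc12, Hoxb9 and Hoxd13 lie clear of the band in all libraries, and the row from Hoxb1 to Hoxb3 lies at or near 0.

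Levels are compared here per kilobase of exon in WT. Hoxc13 stood first at 69.4 ± 5.43 normalized counts per kilobase (SD, n = 3), followed by Hoxc12 at 41.1 ± 6.93 and Hoxb9 at 26.9 ± 2.48, and neither pair of neighbours in this order overlapped between libraries. Hoxb9 and Hoxd13 (21.3 ± 6.32) overlapped. Hoxd13 was above Hoxb13 (11.5 ± 0.851) in every library, Hoxb13 and Hoxa7 (11.4 ± 2.78) overlapped, and every later neighbour overlapped the next. For scale, the median of 19167 genes with a count was 39.3 normalized counts per kilobase and Pou5f1, which encodes the ESC factor OCT4, reached 14313. In KO the first 3 genes kept their order, Hoxc4 moved from the eighth place to the fourth (15.2 ± 0.422 per kilobase) and Hoxd9 from the ninth place to the eighteenth (1.63 ± 0.979). Hoxd9 had 2 counts in each of KO replicates 2 and 3, under the limit of detection, so its exact place in KO is not established.

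Summed over a cluster, HoxA and HoxD were lower in KO, HoxB was lower by less over all its members, and HoxC overlapped. The sum over the 10 HoxA genes was 80.6, 84 and 90.4 normalized counts in WT and 31, 52.8 and 50.2 in KO, so the genotypes did not overlap and KO held 52.6% of the WT mean. HoxD summed to 63.5, 121 and 115 in WT and 38.4, 49.2 and 55.5 in KO, again without overlap, at 47.8% of WT. HoxB summed to 121, 119 and 120 in WT and 69.4, 84.8 and 108 in KO, at 72.7% of WT. HoxC summed to 242, 278 and 293 in WT and 282, 312 and 275 in KO, which overlapped, at 107% of WT. The order of HoxA and HoxB turned without the highest member of each, Hoxa7 and Hoxb9, where the log2 ratio was −0.61 for HoxA and −1.02 for HoxB. Within pairs of libraries that share a replicate number the log2 ratio of KO to WT was −1.38, −0.67 and −0.85 for HoxA, −0.73, −1.29 and −1.05 for HoxD, −0.80, −0.49 and −0.15 for HoxB, and 0.22, 0.17 and −0.09 for HoxC. These sums carry no test, since the members were chosen as a list.

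HoxB lies on chromosome 11, where 960 expressed genes had a median 0.27 lower on the log2 scale in KO than in WT. With each library centred on the median of that chromosome the log2 ratio of the HoxB sums moved from −0.46 to −0.19. The HoxB sums per library above are not centred, so their lack of overlap is not free of this shift. Patz1, Wnt3a and Meis1 also lie on chromosome 11, and their values are given without centring. HoxA (chromosome 6), HoxC (chromosome 15) and HoxD (chromosome 2) are not touched by this shift.

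**Figure D2:**
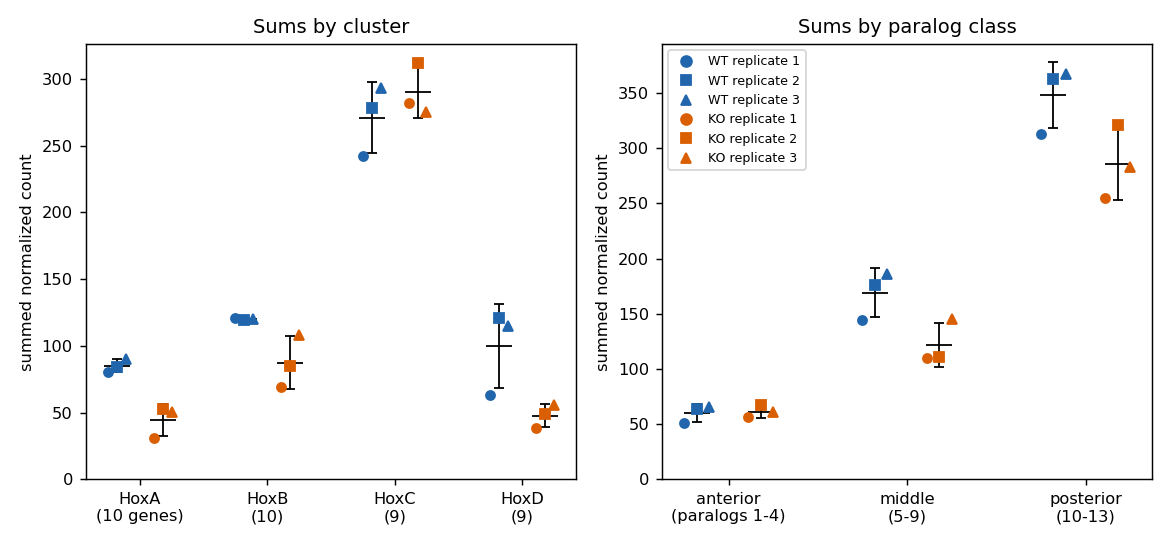
Summed normalized counts per library of the 4 clusters (left) and 3 paralog classes (right), in blue for WT and orange for KO, with black bars for the mean ± SD of 3 libraries and both axes starting at 0. The KO points lie below the WT points for HoxA, HoxB and HoxD, and the genotypes overlap for HoxC and for each paralog class. No centring of chromosome 11 is applied.

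The composition of the described Hox transcripts is given next as shares, which were not tested and are not centred for chromosome 11. HoxC genes made up 47.7%, 46.2% and 47.3% of the summed Hox counts in WT and 67%, 62.5% and 56.2% in KO, HoxA genes 14.8% ± 0.99 and 9.41% ± 1.77, and HoxD genes 17% ± 3.99 and 10.1% ± 1.14 (mean ± SD, n = 3), each without overlap between genotypes. The HoxB share overlapped (21.1% ± 2.47 and 18.6% ± 3.14). A share depends on all members at once, so a higher HoxC share goes with lower sums elsewhere.

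**Figure D3:**
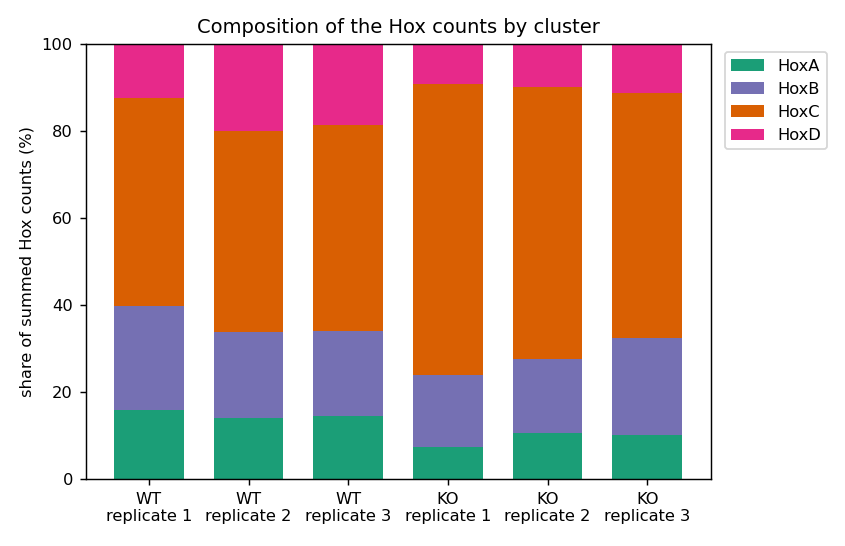
Share of each cluster in the summed normalized counts of the 38 Hox genes, in percent on an axis from 0 to 100, with 1 stacked bar per library. The HoxC part covers 46.2% to 47.7% of the WT bars and 56.2% to 67% of the KO bars.

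By paralog class the summed counts of the genotypes overlapped in each class. Anterior genes summed to 60.1 ± 8 normalized counts in WT and 61.4 ± 5.32 in KO, middle genes to 169 ± 22.2 and 122 ± 20.1, and posterior genes to 348 ± 30.1 and 286 ± 33.3. Within pairs of libraries that share a replicate number the log2 ratio of KO to WT was 0.15, 0.08 and −0.11 for anterior genes, −0.38, −0.66 and −0.36 for middle genes, and −0.30, −0.18 and −0.38 for posterior genes, so the middle and posterior sums were lower in KO in each pair. The level anterior sum rested on Hoxc4, which was 29.2% of it in WT and 63.6% in KO, and without Hoxc4 the log2 ratio of the anterior sums was −0.93 in place of 0.03. As shares of the Hox counts, anterior genes held 10%, 10.6% and 10.6% in WT and 13.4%, 13.4% and 12.4% in KO without overlap, middle genes 29.2% ± 0.895 and 26% ± 3.75 and posterior genes 60.4% ± 1.2 and 60.9% ± 3.27, both with overlap. The anterior sum changed its direction under another scaling (log2 ratio −0.02 to 0.04 over 3 other scalings), while HoxA, HoxB and HoxD stayed lower under each of them. These 3 scalings do not include the centring of chromosome 11, where the HoxB log2 ratio was −0.19.

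Each cluster was also split below and from paralog 9, the part of the clusters where boundary elements have been studied. In HoxA the genes up to Hoxa7 summed to 37.7, 48 and 65.7 in WT and 18.1, 27.9 and 10.6 in KO without overlap, whereas Hoxa9 to Hoxa13 summed to 42.9, 36 and 24.6 in WT and 13, 24.9 and 39.6 in KO with overlap. The log2 ratio of the sums from Hoxa9 on, −0.42, depended on the libraries used. It lay between −0.10 (KO replicate 1 left out) and −0.87 (KO replicate 3 left out) with 1 library removed, and at −1.06 with the shallow pair, both replicates numbered 3, removed. In HoxC the genes up to Hoxc8 summed to 26.3, 41 and 41.1 in WT and 62.1, 55.8 and 52.9 in KO, all higher in KO, but at −0.06 in place of 0.66 (log2 ratio) without Hoxc4. Hoxc9 to Hoxc13 summed to 235 ± 18.3 and 233 ± 20.3. In HoxD the genes from Hoxd9 to Hoxd13 summed to 49.2, 93.2 and 90.4 in WT and 26.5, 39.1 and 39.6 in KO without overlap, and those up to Hoxd8 overlapped (22.2 ± 6.96 and 12.6 ± 2.96) but were lower in KO within each pair of libraries (log2 ratio −0.27, −1.45 and −0.64). In HoxB the genes up to Hoxb8 (65.6% of the WT mean) and those from Hoxb9 on (74.7%) were lower in every KO library, with the chromosome 11 shift alongside. For those from Hoxb9 on the log2 ratio was −0.42, and −0.16 with chromosome 11 centred or −1.62 without Hoxb9. Differences between the parts of a cluster were not tested.

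**Figure D4:**
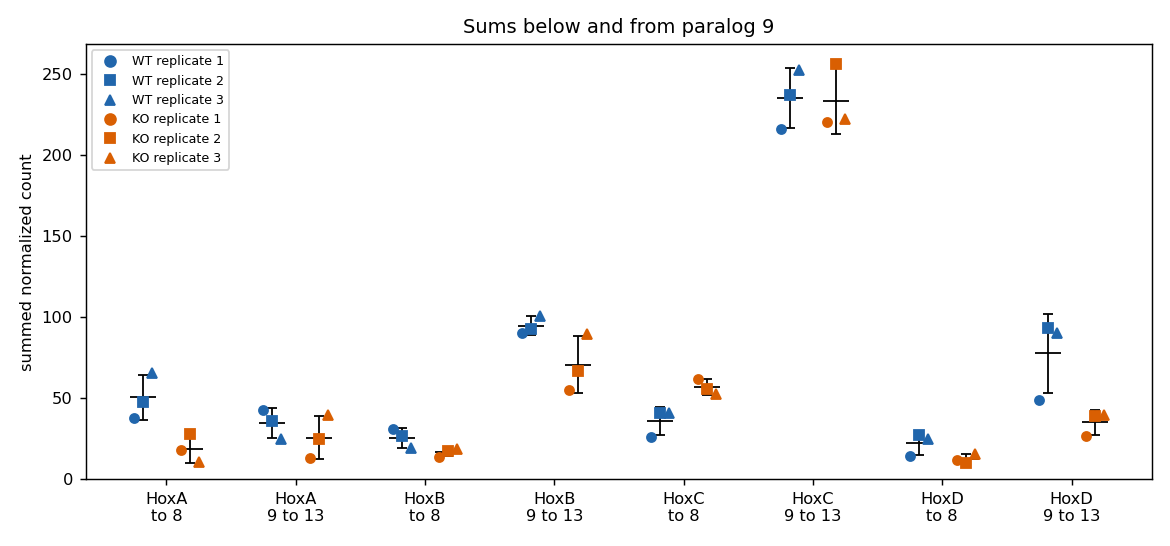
Summed normalized counts per library of the genes below paralog 9 ("to 8") and from paralog 9 on ("9 to 13") in each cluster, in blue for WT and orange for KO, with black bars for the mean ± SD of 3 libraries. The HoxC genes below paralog 9 give the one sum with all KO points above the WT points.

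In the test of single genes, 19 of the 38 Hox genes had enough counts for an adjusted p, and 1 of these passed 0.05 (Hoxa7, lower in KO), beside 1146 of 15309 genes or 7.49% over the whole table. Among the 3787 genes with a mean normalized count under 50, as in 36 of the 38 Hox genes, 4.46% passed. A Hox gene that is not reported here is in none of these member counts, so they do not cover the whole family. Of the 38, 5 had an unadjusted p under 0.05, where 13.9% of all genes with a p did. Of the 19 genes, 13 were fitted lower in KO and 6 higher, with a median log2 fold change of −0.67 against 0.01 for all genes tested. The median over all genes is not matched for level. The HoxB members among the 19 are read here without centring of chromosome 11. In 7 of the 19 the genotypes did not overlap (Hoxa7, Hoxb7, Hoxb13, Hoxc5 and Hoxd9 lower in KO, Hoxc4 and Hoxc11 higher), where 25.6% of all genes tested did not overlap. With the replicate number as a block, 2 of the Hox genes passed, Hoxa7 and Hoxb13, where 14.6% of all genes passed. Hoxa7, Hoxb13 and Hoxc4 passed in edgeR and after a filter on low counts, where 5.46% and 7.94% of all genes passed, and Hoxb13 and Hoxc4 passed in limma-voom, where 5.33% passed.

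**Figure D5:**
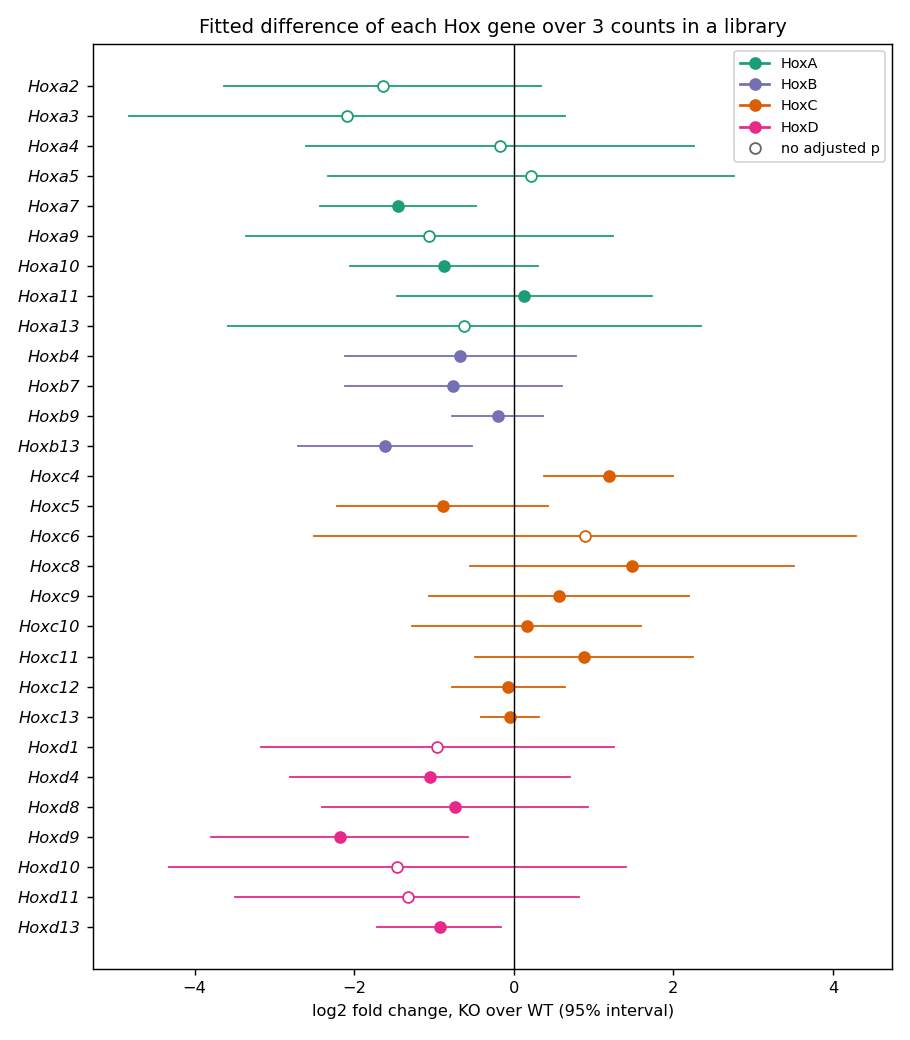
Fitted log2 fold change, KO over WT, of the 29 Hox genes over 3 counts in at least 1 library, with 95% intervals and a colour per cluster, where open circles mark genes without an adjusted p. The intervals of Hoxa7, Hoxb13, Hoxd9 and Hoxd13 lie below 0, that of Hoxc4 lies above 0, and those of the other genes include 0.

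The promoters of the genes whose intervals left 0 are shown for those in the RefSeq table (GRCm38.p6), as the 250 bases before the transcription start, 5′ to 3′ on the strand of the gene. The RefSeq starts differ from those of the GENCODE models used here for positions and lengths, and those of Hoxa7, Hoxc4 and Hoxd9 lie inside the GENCODE genes. PATZ1 and the related factor MAZ bind G-rich DNA, so matches to the G-rich string GGGAGGG on either strand (CCCTCCC on the reverse) are in capitals. They lie at chr6:52218574-52218823 on the minus strand (Hoxa7), chr15:103034145-103034394 (Hoxc4), chr2:74697513-74697762 (Hoxd9) and chr2:74667975-74668224 (Hoxd13), the last 3 on the plus strand.
Hoxa7: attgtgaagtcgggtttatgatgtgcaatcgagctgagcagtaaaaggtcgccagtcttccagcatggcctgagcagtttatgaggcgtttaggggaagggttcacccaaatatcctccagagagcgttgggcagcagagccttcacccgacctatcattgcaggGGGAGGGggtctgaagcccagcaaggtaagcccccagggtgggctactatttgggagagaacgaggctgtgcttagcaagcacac
Hoxc4: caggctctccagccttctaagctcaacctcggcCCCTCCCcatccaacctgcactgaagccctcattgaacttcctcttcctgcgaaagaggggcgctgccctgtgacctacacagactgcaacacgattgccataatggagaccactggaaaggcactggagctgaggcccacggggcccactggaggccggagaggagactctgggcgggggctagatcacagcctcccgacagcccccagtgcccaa
Hoxd9: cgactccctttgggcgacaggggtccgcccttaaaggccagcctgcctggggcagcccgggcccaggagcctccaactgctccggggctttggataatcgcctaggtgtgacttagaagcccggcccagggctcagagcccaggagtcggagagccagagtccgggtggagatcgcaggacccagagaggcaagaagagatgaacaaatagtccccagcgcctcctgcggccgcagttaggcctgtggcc
Hoxd13: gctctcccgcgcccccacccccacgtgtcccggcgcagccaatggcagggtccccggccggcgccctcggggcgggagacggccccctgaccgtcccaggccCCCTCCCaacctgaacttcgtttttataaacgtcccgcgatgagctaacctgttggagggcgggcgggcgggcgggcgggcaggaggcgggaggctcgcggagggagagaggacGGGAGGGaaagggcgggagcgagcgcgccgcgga

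The string occurred once in the Hoxa7 and Hoxc4 windows, on both strands of the Hoxd13 window and nowhere in that of Hoxd9. A promoter was at hand for 22 of the 38 genes, and 7 of them (31.8%) held the string, against 5815 of 27025 genes (21.5%) in the whole table. The 7 were Hoxa7, Hoxa9, Hoxa11, Hoxb4, Hoxc4, Hoxd12 and Hoxd13, of which Hoxa7 is the one that passed the test. The Hox windows had a median GC content of 58.6% and 12 CpG, against 52.4% and 6 CpG for all promoters. A match is a description of these letters and not a binding site.

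In HoxA, Hoxa7 fell. This middle-class gene, which encodes a homeodomain factor of the trunk and lies at chr6:52214491-52221854 on the minus strand, counted 25.2, 31.8 and 41.1 normalized counts in WT and 10.7, 15.4 and 5.29 in KO. All KO libraries were below all WT libraries. The log2 fold change was −1.45 ± 0.50 (SE; 95% interval −2.43 to −0.47) with an adjusted p of 0.0487 (DESeq2). The call stood close to the threshold, since it held in 3 of 9 other fits of all libraries (adjusted p 0.0392 to 0.0639) and in 0 of the 6 fits that left out 1 library, whichever library that was (adjusted p 0.0994 to 0.269, log2 fold change −1.82 to −1.27).

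Within the exons of Hoxa7 lies the noncoding RNA Mira (chr6:52214491-52215288 in RefSeq), known as a transcript of the Hoxa6 to Hoxa7 interval, and 798 of its 798 bases are in exons of the GENCODE model of Hoxa7. Mira counted 32.6, 45.9 and 41.1 in WT and 12.4, 19 and 18.5 in KO, and fell (−1.29 ± 0.43, adjusted p 0.0371 by DESeq2). It passed in 9 of 9 other fits of all libraries and in 1 of the 6 that left out a library, with adjusted p up to 0.332. An antisense gene also covers 20.4% of the Hoxa7 exon bases. How the counting split reads between these genes is not given in the sources used here, so it is not known whether the values of Hoxa7 and Mira are independent.

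The anterior gene Hoxa2, which patterns the hindbrain and the second branchial arch, counted 5.72, 4.94 and 11 in WT and 1.69, 2.37 and 2.64 in KO. KO replicates 1 and 3 had 3 counts and 1 count, at or under the limit of detection, so the separation of the genotypes is not established, and its counts were too low for an adjusted p. Hoxa10, a posterior gene of the lumbar region and the reproductive tract, counted 25.7, 21.9 and 8.21 in WT and 6.77, 13.6 and 13.2 in KO. These overlapped, and the log2 fold change was −0.88 ± 0.60 with an adjusted p of 0.524 (DESeq2). Hoxa11, a limb and uterus gene, counted 7.43, 7.06 and 11 in WT and 2.26, 7.71 and 21.1 in KO, with the highest and the lowest value both in KO. An antisense transcript covers 35% of its exon bases. Hoxa9, which lies past the Hoxa7 gene, counted 7.43, 6.36 and 0 in WT and 1.13, 2.37 and 5.29 in KO (log2 fold change −1.06 ± 1.17, no adjusted p), and its 95% interval of −3.36 to 1.24 covers both directions at this depth. The other members, Hoxa3, Hoxa4, Hoxa5, Hoxa6 and Hoxa13, had genotype means from 0 to 4.68 normalized counts.

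In HoxB, only 4 of the 10 genes had a mean of at least 5 normalized counts. Hoxb13, the lone posterior gene of the cluster, known from the prostate and the tail end of the spinal cord, counted 24, 27.5 and 24.6 in WT and 5.08, 11.9 and 7.93 in KO (chr11:96194316-96197447). The genotypes did not overlap, and the log2 fold change was −1.61 ± 0.56 with an adjusted p of 0.051 (DESeq2). It passed in 4 of 9 other fits of all libraries (adjusted p 0.0321 to 0.181), and with chromosome 11 centred it was −1.34 with an adjusted p of 0.181. Without any 1 library it did not pass (adjusted p 0.0776 to 0.391).

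Hoxb9, a thoracic gene, was the most abundant of the cluster at 66.3, 65 and 76.7 in WT and 50.2, 55.2 and 81.9 in KO. The genotypes overlapped and the log2 fold change was −0.20 ± 0.29 (95% interval −0.77 to 0.36), adjusted p 0.845 (DESeq2), or 0.07 with chromosome 11 centred. Hoxb7 counted 8.58, 12.7 and 13.7 in WT and 5.64, 7.12 and 7.93 in KO without overlap (log2 fold change −0.76, adjusted p 0.691 by DESeq2). These Hoxb7 values are not centred for chromosome 11, so the lack of overlap is not free of that shift. Hoxb4, which is used in the neck region and in blood stem cells, counted 15.4, 10.6 and 5.48 in WT and 3.95, 8.3 and 10.6 in KO, which overlapped. The other 6 HoxB genes had genotype means from 0 to 0.96.

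In HoxC the 2 members with the most counts did not separate the genotypes. Hoxc13, known for its part in hair and nail formation, counted 165, 162 and 186 in WT and 152, 180 and 156 in KO (chr15:102921103-102928814). Its log2 fold change was −0.05 ± 0.19, with a 95% interval from −0.41 to 0.32. Hoxc12 counted 36, 50.1 and 41.1 in WT and 34.4, 52.2 and 31.7 in KO (−0.07 ± 0.36, 95% interval −0.77 to 0.64). The SE of Hoxc13 was the smallest of all Hox genes described.

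At the anterior end, Hoxc4, a gene of the neck region at chr15:103018934-103036852, counted 13.7, 19.8 and 19.2 in WT and 37.8, 39.7 and 39.6 in KO. All KO libraries were about as high as each other and above all WT libraries. The log2 fold change was 1.19 ± 0.41 (95% interval 0.38 to 1.99) with an adjusted p of 0.0535 (DESeq2), and it passed in 3 of 9 other fits of all libraries (adjusted p 0.0296 to 0.0814). It did not pass without any 1 library (adjusted p 0.0542 to 0.391).

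Its neighbour Hoxc5 went the other way in these values, at 10.9, 14.1 and 16.4 in WT and 8.47, 8.3 and 2.64 in KO, without overlap (−0.89 ± 0.68, adjusted p 0.59 by DESeq2). Hoxc8, a brachial gene, counted 0, 7.06 and 2.74 in WT and 10.7, 6.52 and 10.6 in KO with overlap (1.48 ± 1.04). Hoxc9, which sets thoracic identity in motor neurons, counted 2.86, 9.18 and 5.48 in WT and 5.08, 7.71 and 15.9 in KO (0.57 ± 0.83, adjusted p 0.848 by DESeq2). With 1 library left out the log2 fold change of Hoxc9 ran from 0.13 to 1.24. Of the posterior genes, Hoxc10 counted 5.15, 9.89 and 13.7 in WT and 15.2, 5.93 and 7.93 in KO, with overlap. Hoxc11 counted 6.86, 6.36 and 5.48 in WT and 13.5, 10.7 and 10.6 in KO, without overlap (0.88 ± 0.70, adjusted p 0.618 by DESeq2). Hoxc6 alone stayed under a mean of 5. Hoxc5 and Hoxc10 share 166 exon bases of the same strand in the annotation, so reads there belong to neither gene alone.

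In HoxD most measured members were lower in KO. Of the 9, 4 had an adjusted p in DESeq2 (Hoxd4, Hoxd8, Hoxd9 and Hoxd13), and 0 passed there or in edgeR or limma-voom, with 2 at an unadjusted p under 0.05 (13.9% of all genes). Hoxd13, the last gene of the cluster and a digit and genital gene (chr2:74668310-74671599), counted 34.9, 63.6 and 60.2 in WT and 20.9, 35.6 and 23.8 in KO. The highest KO library and the lowest WT library crossed, but KO was lower within each numbered pair. The log2 fold change was −0.93 ± 0.39 with an adjusted p of 0.15 (DESeq2), and of 0.1 to 0.209 in the other fits of all libraries. Hoxd9 (chr2:74697727-74700208) counted 8.58, 15.5 and 19.2 in WT and 3.95, 1.19 and 5.29 in KO, without overlap. KO replicates 2 and 3 had 2 counts each, under the limit of detection. The log2 fold change of Hoxd9 was the largest of the cluster at −2.18 ± 0.82 (95% interval −3.79 to −0.58) with an adjusted p of 0.0825 (DESeq2). Hoxd9 passed in none of 8 other fits of all libraries that tested it (0.0653 to 0.109).

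Hoxd8 counted 6.86, 9.89 and 5.48 in WT and 4.51, 2.97 and 7.93 in KO with overlap (−0.74 ± 0.85, adjusted p 0.781 by DESeq2). Hoxd11, a forearm gene, counted 4, 9.18 and 5.48 in WT and 1.69, 0.593 and 7.93 in KO. Hoxd4 counted 5.15, 7.77 and 11 in WT and 2.82, 2.37 and 7.93 in KO, and 39.1% of its exon bases are shared on the same strand with another gene model. Hoxd1 counted 2.29, 8.47 and 5.48 in WT and 2.82, 4.15 and 0 in KO. In each of these the genotypes overlapped. Hoxd4 was lower in KO within each numbered pair, with KO counts of 5, 4 and 3. Hoxd3, Hoxd10 and Hoxd12 had genotype means from 0 to 3.57.

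Across the paralog 9 genes, which lie at or next to the split of each cluster, the direction differed. Hoxd9 was lower in every KO library, Hoxa9 and Hoxb9 overlapped, and Hoxc9 had the higher mean in KO (9.55 ± 5.62 against 5.84 ± 3.18), also with overlap. Of the 4, 3 had an adjusted p in DESeq2 (Hoxa9 had none), 0 passed there or in edgeR or limma-voom (7.49%, 5.46% and 5.33% of all genes), and 1 had an unadjusted p under 0.05 (13.9% of all genes). The differences among them were not tested.

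The Hox clusters also hold microRNAs that target Hox messages. Their mature sequences from RefSeq, with the seed (bases 2 to 8) in capitals, fall into 2 seed families that sit at the same place in several clusters, miR-10 next to the paralog 4 genes and miR-196 next to the paralog 9 genes.
miR-10a-5p: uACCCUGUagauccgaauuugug
miR-10b-5p: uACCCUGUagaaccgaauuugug
miR-196a-5p: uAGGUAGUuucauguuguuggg
miR-196b-5p: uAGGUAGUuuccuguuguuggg

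Libraries of total RNA read precursors and host transcripts, not mature microRNAs. Of the hairpin genes, Mir10a, Mir10b, Mir196a-2 and Mir196b had at most 3 counts in each library. Mir196a-1, between Hoxb9 and Hoxb13 at chr11:96265164-96265265, counted 20, 13.4 and 46.5 in WT and 33.3, 25.5 and 63.4 in KO. Its genotypes overlapped, though it was higher in KO within each numbered pair (0.68 ± 0.49, adjusted p 0.559 by DESeq2). The noncoding RNA Gm53, whose annotated end lies just before it, counted 84.1 ± 10.3 in WT and 89.7 ± 5.05 in KO, also with overlap. Of 27 Hox cluster noncoding RNAs listed, 10 were in the files under the listed name, 4 of these had an adjusted p and 1 passed, Mira (7.49% of all genes). The fourth of these, Hotair in HoxC, counted 16, 12.7 and 16.4 in WT and 16.9, 17.8 and 34.4 in KO, higher in every KO library (0.53 ± 0.51, adjusted p 0.723 by DESeq2). Hoxa11as, which is in the files and was not on the list, counted 5.15, 4.94 and 5.48 in WT and 5.64, 7.71 and 7.93 in KO (0.44 ± 0.83, adjusted p 0.889 by DESeq2).

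The genes that flank each cluster were counted in the same way, and differences between clusters were not tested. None of the 5 HoxA neighbours, the 6 HoxC neighbours and the 6 tested HoxD neighbours passed the test in DESeq2, edgeR or limma-voom, and 0, 0 and 1 had an unadjusted p under 0.05, where 13.9% of all genes did. With the replicate block Hibadh beside HoxA (0.22), Cbx5 beside HoxC (0.18), and Atp5g3 (0.21) and Mtx2 (0.24) beside HoxD passed, all higher in KO, where 14.6% of all genes passed. Of 6 HoxB neighbours, 4 fell (7.49% of all genes passed), namely Calcoco2 (−1.07, adjusted p 6.84e-07), Ttll6 (−0.88), Snx11 (−0.44) and Nfe2l1 (−0.39, all by DESeq2). With chromosome 11 centred, Calcoco2, which encodes an autophagy receptor, still passed (−0.80, adjusted p 0.000302), and Ttll6, Snx11 and Nfe2l1 did not (adjusted p 0.268, 0.6 and 0.738). Of the 6 fits that left out 1 library, Calcoco2 passed in 5, all but the one without WT replicate 2 (adjusted p 0.101). Nfe2l1 passed in 4 (not without KO replicate 1 or KO replicate 2, adjusted p 0.105 and 0.0697), Snx11 in 2 (those without KO replicate 3 or WT replicate 3) and Ttll6 in 1 (without WT replicate 3).

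Among the partners of HOX proteins, 8 cofactor genes of the TALE homeodomain family are described. Of these 8, 0 passed the test in DESeq2, edgeR or limma-voom, 3 had an unadjusted p under 0.05 (13.9% of all genes), and Pbx2 passed with the replicate block (0.30, adjusted p 0.0157 in DESeq2, 14.6% of all genes). Meis1 had the values 43.1 ± 7.84 in WT and 22.5 ± 4.79 in KO without overlap (−0.91, adjusted p 0.16 by DESeq2). It lies on chromosome 11, and these values are not centred for the shift of that chromosome. Of the ParaHox and Cdx genes, 3 had an adjusted p and 2 passed, both lower in KO, beside 7.49% of all genes. Cdx2, a caudal factor upstream of central Hox genes, counted 117, 105 and 115 in WT and 62.1, 73.5 and 68.7 in KO (−0.72 ± 0.24, adjusted p 0.035 by DESeq2), and passed in none of the fits that left out 1 library. Cdx1 counted 750, 763 and 518 in WT and 547, 460 and 418 in KO, with overlap between genotypes but lower in KO within each numbered pair (−0.52 ± 0.17, adjusted p 0.0289 by DESeq2). It passed in 2 of those 6 fits and with the replicate block (adjusted p 0.00026), and did not pass in edgeR or limma-voom (0.0628 and 0.0654). Of the 16 genes of the retinoic acid pathway, 13 had an adjusted p, 0 passed in DESeq2, edgeR or limma-voom, and 3 had an unadjusted p under 0.05 (13.9% of all genes), and its summed level overlapped, from 5536 to 5824 in WT and from 5444 to 5934 in KO. With the replicate block 1 of them passed, Crabp1 (0.46, adjusted p 0.000622 in DESeq2), which encodes a retinoic acid binding protein, where 14.6% of all genes passed.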

How the data were processed

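RNA-seq libraries of 3 WT and 3 Patz1 KO cultures were used. The deposited values are raw counts per gene symbol, made by the authors on mm10. The submitters' processing notes name TopHat2 2.1.1, Bowtie2 2.3.1.0, featureCounts 1.6.2 and DESeq2. The annotation, the strand setting and the handling of duplicates are not given in the sources used here.

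Counts were tested with DESeq2 1.42.0 (Wald test, genotype only, no shrinkage, independent filtering at 0.1) over all genes in R 4.3.3, with Benjamini-Hochberg adjustment and a threshold of 0.05. Members and lists were chosen with earlier results of these data known. Values per library are given for members with a mean of at least 5 in WT or KO, or under the threshold in a fit of all 6 libraries. Fold changes are given for the latter, for the paralog 9 genes and for Hoxa7, Hoxa10 and Hoxd8. Those of other members were added after their values were seen. A Hox gene and a gene of another list are not reported here and are in no sum or count of members. Sums add normalized counts. Lengths and positions come from GENCODE M21 (GRCm38), matched for 23055 symbols, of which 1278 through an older symbol. The 95% intervals cover counting error and spread between libraries, while the limit of 3 counts is a fixed number. Neither covers PCR duplicates.

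Alternatives were edgeR 4.0.16 (quasi-likelihood), limma 3.58.1 (voom), TMM factors, a filter of 10 counts in 3 libraries, other filtering, centring of chromosome 11, a replicate block and leaving libraries out. Same-numbered WT and KO libraries deviated together (correlations 0.469, 0.619 and 0.684 over 11524 genes), so the replicate numbers were taken to pair the samples. The tests were run on simulated counts first. Libraries of a genotype differed by more than sampling noise.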

Additional observations from a re-analysis of the deposited data

How the results depend on the processing

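Depth limits many of these values, since 16 of the 38 Hox genes had means under 5 normalized counts. Counted as over 3 counts in at least 2 of 3 libraries, 24 genes were detected in WT and 21 in KO. With at least 10 counts these were 14 and 12, with all libraries thinned to the shallowest 13 and 11, and with any count 33 and 32.

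The number of Hox genes under the threshold, 1, became 3 in edgeR and with the count filter and 2 in limma-voom. Over all genes 1059, 1145 and 1035 passed in these, against 1146 in the main fit. The number of Hox genes became 0 with TMM factors (1132 of all genes passed) and with chromosome 11 centred (919, or 1744 with the replicate block). It was also 0 with filtering optimised at 0.05 (1133) or turned off (1074), and without both replicates numbered 3 (1332). Without any single library it was 0 too, where 583 to 1341 of all genes passed. The cause of these changes was not tested.

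With the replicate block, calls over all genes went from 1146 (7.49%) to 2131 (14.6%), and beside them 2 Hox genes and 13 of 48 tested genes of the pathway lists passed in place of 1 and 7 of 51 (the added genes are named beside their lists), and it changed no call of another Hox gene. With chromosome 11 centred, 4 list genes passed (919 of all genes), or 9 with the replicate block as well (1744 of all genes). Leaving out single libraries gave 1 to 5 list genes, where 583 to 1341 of all genes passed.

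Leaving out the highest member moved the log2 ratio of the sums to −0.61 for HoxA, −1.02 for HoxB, 0.34 for HoxC, −0.93 for anterior, −0.73 for middle and −0.52 for posterior genes. Centring chromosome 11 moved HoxB to −0.19 and turned Hoxb9 to 0.07, or 0.06 with the replicate block. Without single libraries the sums of HoxA, HoxB and HoxD stayed lower in KO (−1.07 to −0.72, −0.64 to −0.32 and −1.31 to −0.9) and that of HoxC ran from 0.02 to 0.16. Keeping only members with a mean of at least 5, an alternative chosen after seeing the data, moved no cluster sum by more than the spread between replicates.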
